A study of Mus musculus with 9 samples.

Results

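The genes described are 10 that mark the state of heart fibroblasts, out of 49671 gene identifiers counted: Pdgfra, Tcf21, Ddr2 and Gsn, which mark resting fibroblasts, and Acta2, Tagln, Cthrc1, Fap, Meox1 and Cnn1, which mark activation. They were chosen by name, from a list and not from measured values, although with earlier results of these libraries known, and each matched 1 mouse Ensembl identifier. The study sequenced polyadenylated RNA from left ventricle of mice that lack delta-sarcoglycan (dSG knockout, KO), the product of Sgcd, and of wild-type mice (WT), each given ifetroban or its vehicle. Delta-sarcoglycan sits in the dystrophin complex of the muscle cell membrane, and ifetroban is an antagonist of the thromboxane receptor. The 9 libraries were 3 of KO given ifetroban, 2 of KO given vehicle, 2 of WT given ifetroban and 2 of WT given vehicle. The labels give no strain, allele, age, dose or length of treatment, and do not state whether each library is from its own animal, and p-values therefore reflect only how these libraries varied, possibly for technical reasons.

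Fibroblasts of the healthy ventricle keep up the collagen matrix and carry receptors for platelet-derived growth factor and for collagen. After injury or overload some of them pass into an activated state and then into myofibroblasts, which make matrix and build contractile actin bundles. The contractile genes of myofibroblasts are also made by the smooth muscle of blood vessels, and in RNA from whole tissue a larger number of cells of a type and more RNA per cell cannot be told apart.

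Levels are CPM values (a gene's reads as a share of all reads counted in genes), scaled by library with the TMM method, so a CPM value compares libraries and not genes. Tests are edgeR's quasi-likelihood F test over 15261 genes, two-sided with Benjamini-Hochberg adjustment, and a gene was called at an adjusted p under 0.05. Fold changes are log2 values with an approximate standard error (SE), and all 10 genes passed the filter on low counts. Library totals were 21299748 to 31394548 reads in genes. Sgcd stood at 7.49 to 18.5 CPM in the 5 KO libraries and at 28.9 to 33.1 CPM in 3 WT libraries, while the library labelled WT vehicle 1 had 11.1 CPM, inside the KO range. It is therefore called by its label throughout, every direction against WT vehicle rests in part on it, and values that turn sign or lose their call without it are given beside the result. In 4 libraries, KO ifetroban 1, KO vehicle 1, KO vehicle 2 and the library labelled WT vehicle 1, genes with long transcripts read low (Spearman's rho between exonic length and a gene's deviation, -0.536 to -0.335), and in the other 5 they read high (0.417 to 0.491). The 10 cardiomyocyte markers summed to 57879 to 62171 CPM in KO ifetroban, 55113 to 61659 in KO vehicle, 66745 to 68643 in WT ifetroban and 66588 to 70743 in WT vehicle libraries, lower in all 5 KO than in all 4 WT libraries; their part in the values of the 10 genes was not tested. By gene, 3 of the 10 cardiomyocyte markers had positive fold changes over both treatments and 7 negative, with a median of -0.056 and 0 called. In KO ifetroban 1, 7 of the 10 lay above the mean of the WT libraries of the same treatment (median 0.195 log2 units). Most markers thus did not share the lower sum in that library, and 1 to 5 of the 10 lay above in the other KO libraries. Atrial markers summed to 1.42 to 2.90 CPM.

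Per kilobase of exon, the 10 genes differed widely in level. Gsn, which encodes the actin-severing protein gelsolin, averaged 409 ± 83.5 CPM per kilobase in KO ifetroban, 406 ± 60.3 in KO vehicle, 389 ± 67.5 in WT ifetroban and 378 ± 34.8 in WT vehicle libraries (SD, n = 3, 2, 2 and 2, as in the groups named throughout). Acta2 followed with 59.8 ± 15.5, 93.5 ± 28.6, 41.8 ± 2.08 and 46.0 ± 11.7 CPM per kilobase in the same 4 groups. Tagln averaged 20.5 ± 4.31, 40.2 ± 25.1, 15.6 ± 2.64 and 19.4 ± 2.10. Meox1 came next, at 9.53 ± 2.58, 24.0 ± 18.9, 5.84 ± 0.851 and 5.40 ± 0.0709. Pdgfra, Ddr2 and Tcf21 lay close together, with group means of 3.10 to 5.18 CPM per kilobase and SDs of up to 1.77, and they are not ranked among themselves. Cnn1 averaged 0.961 to 2.86 and Fap 0.588 to 0.613 CPM per kilobase over the 4 groups. Cthrc1 was the lowest of the 10 in WT, with 0.171 ± 0.0653 in WT ifetroban and 0.0525 ± 0.0287 in WT vehicle, but averaged 0.827 ± 0.15 in KO ifetroban and 1.69 ± 0.857 in KO vehicle, above Fap. Gsn, Acta2 and Tagln kept this order in all 4 groups.

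**Figure D1:**
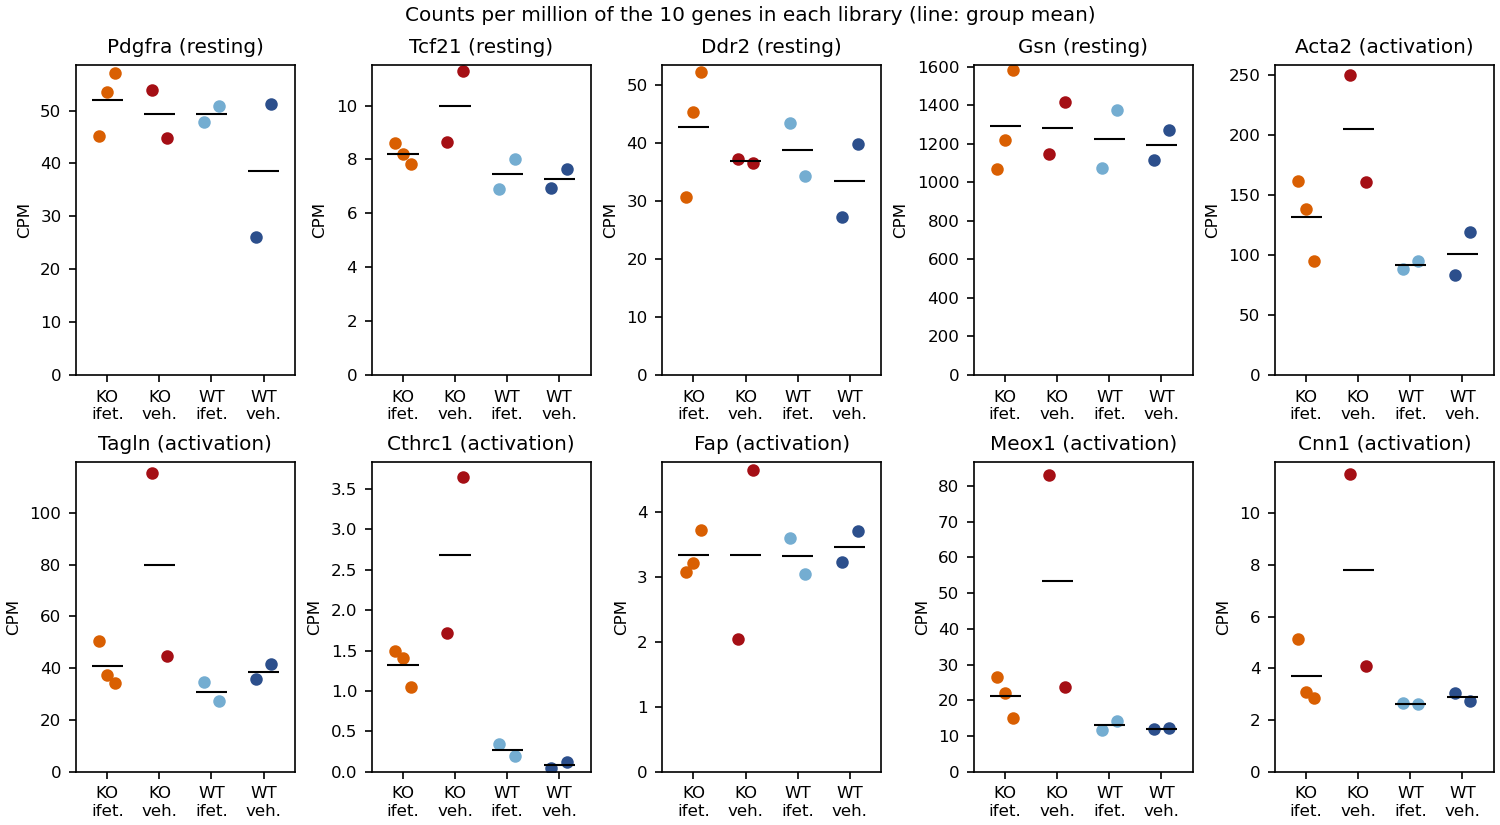
Level of each of the 10 genes in every library, as TMM-scaled CPM on linear axes that start at 0. Points are single libraries in the 4 groups, in replicate order from left to right, and lines are group means. Cthrc1 and Meox1 are the genes for which all 5 KO libraries lie above all 4 WT libraries, and KO vehicle 1 is far above KO vehicle 2 for Meox1, Tagln and Cnn1.

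The resting genes showed no difference between genotypes that passed the test. Pdgfra, the receptor for platelet-derived growth factor that marks resident fibroblasts, had 45.3, 53.5 and 57.0 CPM in KO ifetroban, 53.8 and 44.9 in KO vehicle, 47.8 and 50.9 in WT ifetroban, and 26.1 and 51.2 in WT vehicle libraries. The lowest value, 26.1 CPM, was that of the library labelled WT vehicle 1, and the other 8 libraries lay between 44.9 and 57.0 CPM. Its log2 fold change in KO vehicle against WT vehicle was 0.35 (SE 0.279, adjusted p = 0.599), and -0.078 with that library left out. Ddr2, a receptor tyrosine kinase that binds fibrillar collagen, had 30.8, 45.4 and 52.2 CPM in KO ifetroban, 37.3 and 36.7 in KO vehicle, 43.5 and 34.4 in WT ifetroban, and 27.3 and 39.8 in WT vehicle libraries. Groups overlapped in each comparison of Ddr2, and its fold change was 0.14 in KO vehicle against WT vehicle (SE 0.269, adjusted p = 0.847), and -0.13 without the library labelled WT vehicle 1.

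Gsn had 1070.3, 1218 and 1582 CPM in KO ifetroban, 1146 and 1415 in KO vehicle, 1076 and 1377 in WT ifetroban, and 1114 and 1269.5 in WT vehicle libraries. Libraries of 1 group differed by more than the group means did, and the fold change was 0.10 in KO vehicle against WT vehicle (SE 0.225, adjusted p = 0.868), and -0.011 without the library labelled WT vehicle 1. Tcf21, a basic helix-loop-helix factor needed for fibroblasts to arise from the epicardium in mice, had 8.60, 8.19 and 7.83 CPM in KO ifetroban, 8.65 and 11.3 in KO vehicle, 6.90 and 8.003 in WT ifetroban, and 6.93 and 7.65 in WT vehicle libraries. Of the resting genes, Tcf21 alone kept the vehicle genotypes apart, and 4 of 5 KO libraries exceeded all 4 WT libraries. Its fold change did not pass the test in KO vehicle against WT vehicle (0.45, SE 0.21, adjusted p = 0.408) or over both treatments (0.29, SE 0.142, adjusted p = 0.331).

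Cthrc1 was the gene that rose. It encodes a secreted protein with collagen-like repeats that activated heart fibroblasts make. It had 1.50, 1.41 and 1.05 CPM in KO ifetroban, 1.72 and 3.65 in KO vehicle, 0.345 and 0.198 in WT ifetroban, and 0.0513 and 0.116 in WT vehicle libraries. All 5 KO libraries lay above all 4 WT libraries, and the library labelled WT vehicle 1 was the lowest of the 9.

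Behind these levels were few reads, 32, 46 and 27 in KO ifetroban, 37 and 92 in KO vehicle, 9 and 5 in WT ifetroban, and 1 and 3 in WT vehicle libraries. As a ratio of summed reads corrected for library size, KO vehicle stood 31.3 times over WT vehicle, with an exact 95% interval of 11.9 to 117. KO ifetroban stood 4.82 times over WT ifetroban (95% interval 2.75 to 9.13), and all KO libraries 9.94 times over all WT libraries (6.15 to 17.1). These intervals cover counting error only, not the spread between libraries.

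In the fit over all genes Cthrc1 rose by a log2 fold change of 4.87 in KO vehicle against WT vehicle (SE 0.639, adjusted p = 0.0475) and of 3.56 over both treatments (SE 0.412, adjusted p = 0.0142). In KO ifetroban against WT ifetroban its fold change was 2.25 (SE 0.513, adjusted p = 0.545). The vehicle call stands near its threshold: it was lost without either WT vehicle library (adjusted p = 0.36 without the library labelled WT vehicle 1 and 0.608 without WT vehicle 2), without any one WT or KO ifetroban library (0.0796 to 0.149), in a fit of the vehicle libraries alone (0.124) and with a term for the length trend (0.18). Over both treatments the call was lost without any one WT library (0.0694 to 0.122), without KO ifetroban 2 (0.0638) and with the length term (0.0569). In all these fits the fold change stayed between 3.35 and 5.57.

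Meox1, a homeobox factor that in mice switches heart fibroblasts towards the myofibroblast state, was the other gene with no overlap between genotypes. It had 26.6, 22.0 and 15.2 CPM in KO ifetroban, 83.1 and 23.7 in KO vehicle, 11.7 and 14.3 in WT ifetroban, and 11.9 and 12.1 in WT vehicle libraries. KO vehicle 1 was 3.50 times KO vehicle 2, and the lowest KO library was close to the highest WT library. With that spread Meox1 was not called: its fold change was 2.15 in KO vehicle against WT vehicle (SE 0.491, adjusted p = 0.222), 0.71 in KO ifetroban against WT ifetroban (SE 0.442, adjusted p = 0.979) and 1.43 over both treatments (SE 0.331, adjusted p = 0.0842). Without KO vehicle 1 the vehicle value was 0.98 (adjusted p = 0.994), and without KO vehicle 2 it was 2.78 (adjusted p = 0.00194).

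Acta2, which encodes the smooth muscle alpha-actin of myofibroblast stress fibres, had 162, 138 and 94.6 CPM in KO ifetroban, 249.6 and 161 in KO vehicle, 88.5 and 94.9 in WT ifetroban, and 83.0 and 119 in WT vehicle libraries. Both KO vehicle libraries were above all WT libraries, and KO ifetroban 3 lay among the WT libraries. The fold change was 1.02 in KO vehicle against WT vehicle (SE 0.297, adjusted p = 0.266), 0.52 in KO ifetroban against WT ifetroban (SE 0.273, adjusted p = 0.979) and 0.77 over both treatments (SE 0.202, adjusted p = 0.118). DESeq2 called Acta2, Meox1 and Cthrc1 in the vehicle comparison and over both treatments, against Cthrc1 alone in edgeR.

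Tagln encodes transgelin, an actin-binding protein of contractile cells, and had 50.4, 37.5 and 34.1 CPM in KO ifetroban, 115 and 44.6 in KO vehicle, 34.6 and 27.2 in WT ifetroban, and 35.7 and 41.6 in WT vehicle libraries. KO vehicle 1 stood alone, and the other 8 libraries lay between 27.2 and 50.4 CPM. The fold change was 1.05 in KO vehicle against WT vehicle (SE 0.379, adjusted p = 0.337), 0.21 without KO vehicle 1 and 1.57 without KO vehicle 2. Tagln overlaps Pcsk7 on the opposite strand, which had 4509 reads over the 9 libraries. Counted without regard to strand, the Tagln fold change in KO ifetroban against WT ifetroban turned from 0.39 (SE 0.347) to -0.092.

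Cnn1, calponin 1, which restrains the actomyosin ATPase in smooth muscle, had 5.14, 3.10 and 2.87 CPM in KO ifetroban, 11.5 and 4.09 in KO vehicle, 2.65 and 2.61 in WT ifetroban, and 3.03 and 2.74 in WT vehicle libraries. KO vehicle 1 was again the highest, 2.82 times KO vehicle 2, and 4 of 5 KO libraries exceeded all WT libraries. The fold change was 1.43 in KO vehicle against WT vehicle (SE 0.466, adjusted p = 0.298) and 0.51 without KO vehicle 1.

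Fap, a cell-surface serine protease used as a marker of activated fibroblasts, had 3.09, 3.22 and 3.72 CPM in KO ifetroban, 2.05 and 4.65 in KO vehicle, 3.61 and 3.05 in WT ifetroban, and 3.23 and 3.71 in WT vehicle libraries. The KO vehicle libraries were the lowest and the highest of the 9. Its fold change was -0.049 in KO vehicle against WT vehicle (SE 0.365, adjusted p = 0.969) and -0.021 over both treatments (SE 0.246, adjusted p = 0.975), the nearest to 0 of the 6 activation genes in both.

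In KO ifetroban against WT ifetroban the remaining fold changes were 0.073 for Pdgfra (SE 0.254), 0.14 for Ddr2 (SE 0.246), 0.073 for Gsn (SE 0.206) and 0.14 for Tcf21 (SE 0.192) among the resting genes, and 0.49 for Cnn1 (SE 0.43) and 0.0068 for Fap (SE 0.331) among the activation genes. None of these 6 passed the test, with adjusted p of 0.979 to 0.998, and the Fap value was -0.00016 without the library labelled WT vehicle 1. Over both treatments Pdgfra, at 0.21, was -0.0057 without that library.

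Counted over the 10 genes, 1 was called in KO vehicle against WT vehicle, where 0.0524% of all tested genes were called, and 1 over both treatments, where 0.537% were. DESeq2 called 3 in each, against 2.44% and 4.94% of all tested genes. At an unadjusted p under 0.05 there were 5 in each, namely the activation genes other than Fap, against 12.5% and 16.5% of all tested genes. In KO ifetroban against WT ifetroban edgeR and DESeq2 called 0 of the 10, with 1 at an unadjusted p under 0.05, Cthrc1. Of all tested genes edgeR called 0.0131% there and DESeq2 0.452%, and 4.7% had an unadjusted p under 0.05.

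By ranges, 6 of the 10 were higher in both KO vehicle libraries than in both WT vehicle libraries (Acta2, Cnn1, Cthrc1, Meox1, Tagln and Tcf21), against 16.8% of all tested genes. In KO ifetroban against WT ifetroban the 3 such genes were Cnn1, Cthrc1 and Meox1, against 16.1% of all tested genes. Cthrc1 and Meox1 were higher in all 5 KO than in all 4 WT libraries, against 5.03% of all tested genes. The shares of the 10 are above these backgrounds for the vehicle libraries, but the genes were listed with earlier results known, and 10 genes are few.

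**Figure D2:**
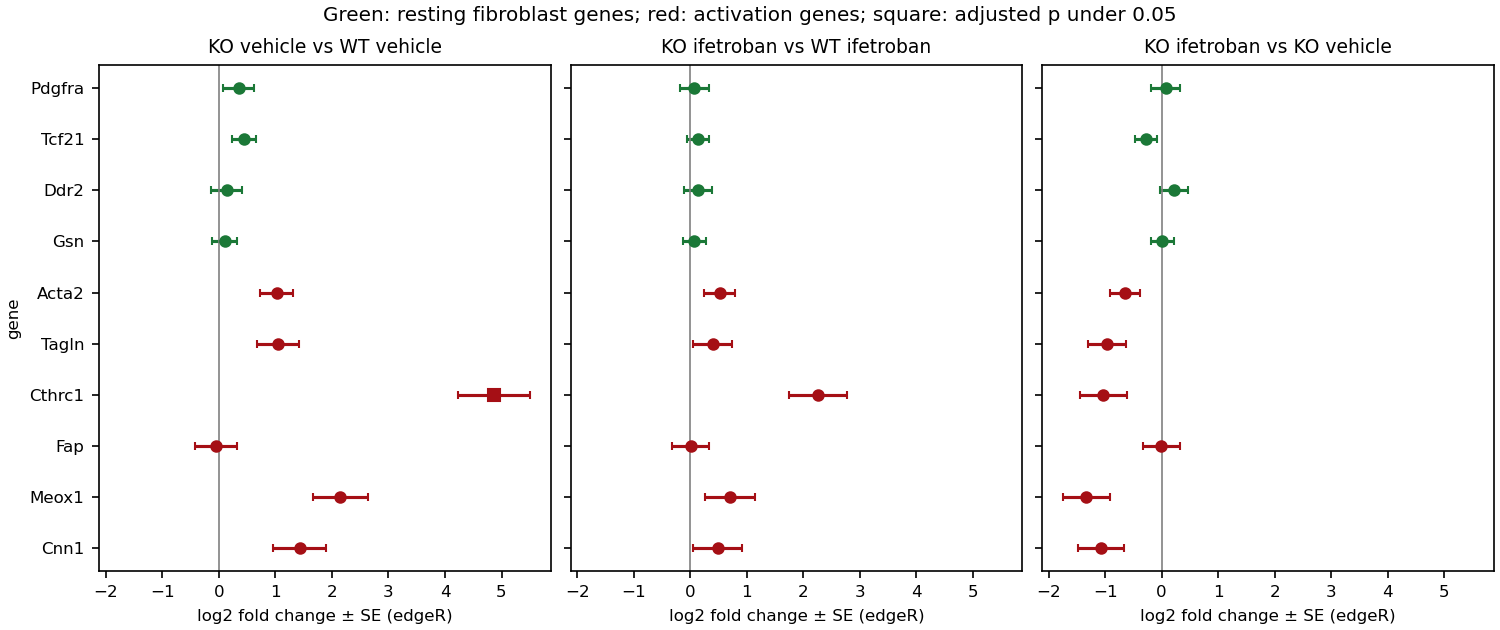
Log2 fold changes of the 10 genes, with bars of 1 SE either side, in 3 panels: KO vehicle against WT vehicle, KO ifetroban against WT ifetroban, and KO ifetroban against KO vehicle. Green marks resting genes, red activation genes and a square an adjusted p under 0.05. The resting genes lie between 0.073 and 0.45 in both genotype panels, and Cthrc1 reaches 4.87 in the first, the 1 square.

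Activation and resting genes were set against each other within each library, as the mean log2 CPM of the 6 activation genes minus that of the 4 resting genes. This difference was -2.17, -2.67 and -3.08 in KO ifetroban, -1.62 and -2.23 in KO vehicle, -3.10 and -3.32 in WT ifetroban, and -3.01 and -3.24 in WT vehicle libraries. Both KO vehicle libraries and 2 of the 3 KO ifetroban libraries were above all WT libraries, and KO ifetroban 3 was among them. Group means were -2.64 ± 0.457 in KO ifetroban, -1.93 ± 0.434 in KO vehicle, -3.21 ± 0.152 in WT ifetroban and -3.12 ± 0.162 in WT vehicle (SD). KO vehicle was 1.20 above WT vehicle, and 0.89 to 1.50 above it with 1 library left out. Cthrc1 weighs heavily here, as the activation gene furthest above WT of the same treatment in every KO library. It stood 3.48 and 4.53 log2 units above in KO vehicle 1 and 2, over 4 reads in all in WT vehicle. The medians of the 6 activation genes there were 1.77 and 0.59. In KO ifetroban 3 Cthrc1 stood 1.71 above, against a median of 0.16. The mean of the resting genes was 5.91 to 6.29 log2 CPM in KO libraries and 5.60 to 6.07 in WT libraries, so the difference followed the activation genes, at 3.21 to 4.44 in KO and 2.59 to 2.87 in WT libraries. No p is given, since the genes were chosen with results known.

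**Figure D3:**
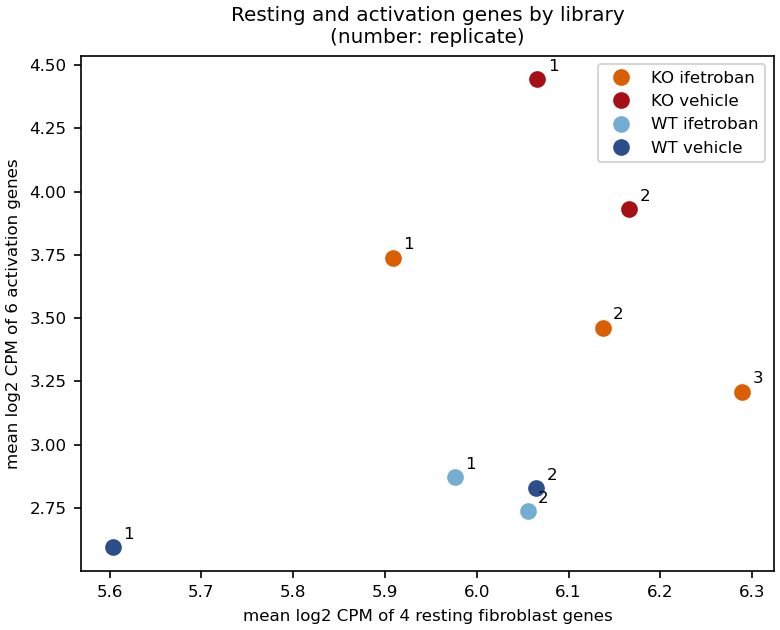
Mean log2 CPM of the 6 activation genes (vertical) against that of the 4 resting genes (horizontal), 1 point per library, with the replicate number beside it. The 4 WT libraries lie between 2.59 and 2.87 on the vertical axis and the 5 KO libraries between 3.21 and 4.44, with KO vehicle 1 the highest. Of the 6 activation genes Cthrc1 stands furthest above WT of the same treatment in every KO library.

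Within the KO groups the activation genes did not move as a block. KO vehicle 1 exceeded KO vehicle 2 by 3.50 times for Meox1, 2.82 times for Cnn1, 2.58 times for Tagln and 1.55 times for Acta2. For Cthrc1 and Fap the order was turned round, at 0.471 and 0.441 times. Pdgfra, Ddr2, Gsn and Tcf21 stood at 1.20, 1.02, 0.81 and 0.767 times. The contractile genes and Meox1 were thus high in KO vehicle 1, and Cthrc1 and Fap in KO vehicle 2.

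KO ifetroban 3 had the lowest Acta2, Tagln, Meox1, Cnn1 and Cthrc1 of the 5 KO libraries, at 94.6, 34.1, 15.2, 2.87 and 1.05 CPM, so here Cthrc1 went with the contractile genes. Of the resting genes it had the highest Pdgfra, Ddr2 and Gsn of all 9 libraries, at 57.0, 52.2 and 1582 CPM, but the lowest Tcf21 of the 5 KO libraries, at 7.83 CPM. The 20 other activated-fibroblast genes had a median of 1.26 log2 units over the WT libraries of the same treatment in KO ifetroban 3, against 0.82 and 0.95 in KO ifetroban 1 and 2. Over all tested genes that median was 0.00085 to 0.029 in the KO ifetroban libraries. Libraries also differed as wholes: the first principal component, 47.5% of the variance, put KO vehicle 1 at 84.4 and KO ifetroban 1 at 34.2. KO vehicle 2 lay at 2.02, KO ifetroban 2 at -1.11 and KO ifetroban 3 at -9.80. The library labelled WT vehicle 1 lay among these at -4.23, and the other WT libraries between -38.2 and -32.4. The part of this component in the order of the activation genes was not tested.

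**Figure D4:**
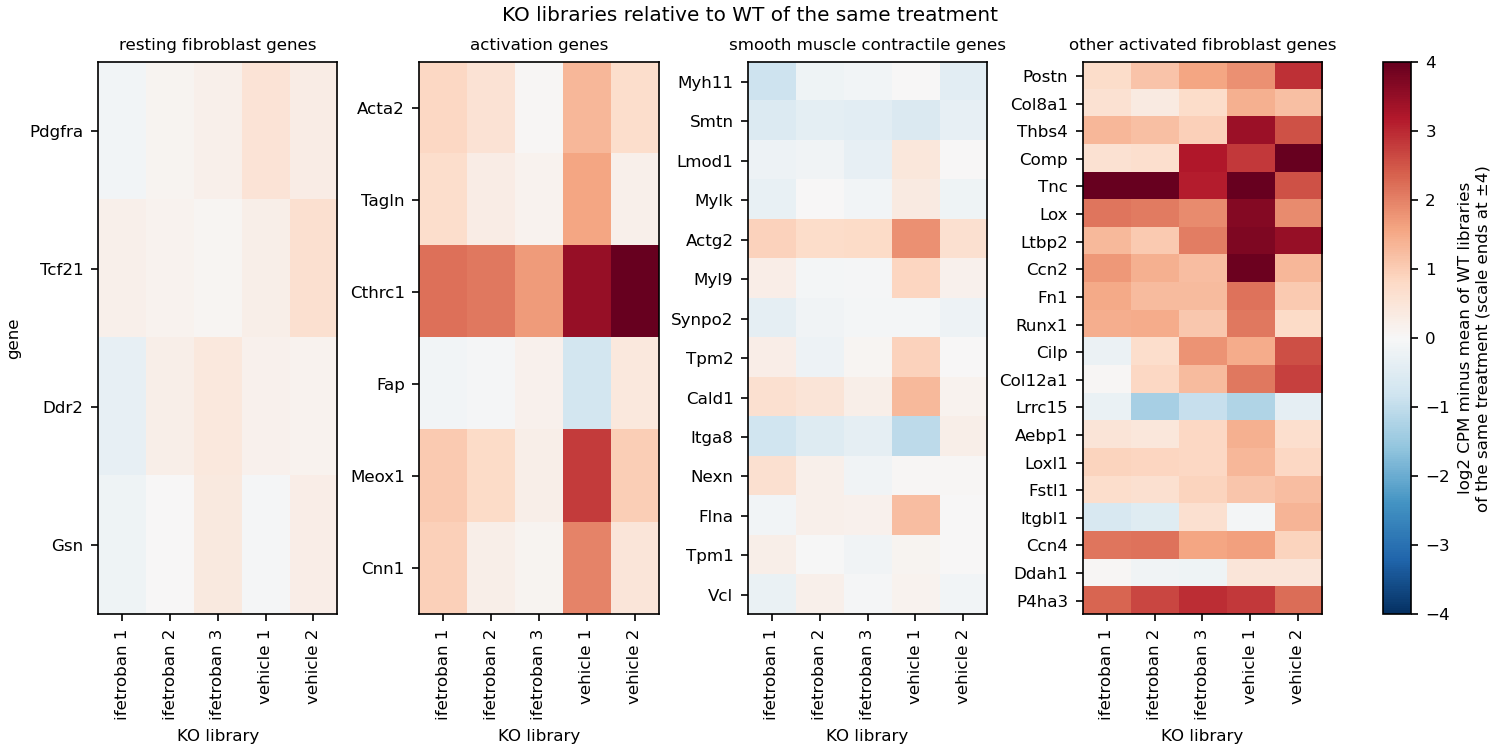
Heat map of log2 CPM in each KO library minus the mean of the WT libraries of the same treatment, with genes as rows and KO libraries as columns, for the resting and activation genes, smooth muscle genes and other activated-fibroblast genes (red higher in KO, blue lower, colour scale ending at 4 log2 units either way). The median over the activation genes is 1.77 in KO vehicle 1 and 0.16 in KO ifetroban 3, and that over the other activated-fibroblast genes runs from 0.82 to 1.96.

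The genotype difference was also taken within the 4 libraries with long transcripts low (3 KO against the library labelled WT vehicle 1) and within the other 5 (2 KO ifetroban against 3 WT). Cthrc1 differed by 4.06 log2 units in the first and 2.18 in the second, and Meox1 by 1.65 and 0.53. Acta2 differed by 1.17 and 0.19, Cnn1 by 1.02 and 0.16, and Tagln by 0.84 and 0.076. Of the resting genes, Pdgfra differed by 0.87 and 0.14 and Tcf21 by 0.44 and 0.093, while Ddr2 was about equal in both at 0.35 and 0.32, and Gsn was smaller in the first, at 0.11 and 0.17. Fap was near 0 in both, at -0.065 and 0.0084. Both KO vehicle libraries are in the first class, so treatment and length trend cannot be told apart in this split, and its values have no replicate on the WT side of the first class.

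In KO, the activation genes had lower values under ifetroban than under vehicle, and none passed the test. KO ifetroban against KO vehicle gave log2 fold changes of -1.33 for Meox1 (SE 0.422), -1.08 for Cnn1 (SE 0.408), -1.03 for Cthrc1 (SE 0.411), -0.97 for Tagln (SE 0.338) and -0.64 for Acta2 (SE 0.266), each with an adjusted p of 0.688. Fap stood at -0.0072 (SE 0.332); leaving out the library labelled WT vehicle 1 gave 0.011. Both edgeR and DESeq2 called 0 of the 10, with 5 at an unadjusted p under 0.05. Over all genes edgeR called 0 (0%), with 766 (5.02%) at an unadjusted p under 0.05, and DESeq2 called 3 (0.0197%).

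Much of this came with 1 library. Without KO vehicle 1 the values were -0.16 for Meox1, -0.15 for Cnn1, -0.13 for Tagln and -0.29 for Acta2, but -1.47 for Cthrc1. Without KO vehicle 2 they were -1.96, -1.64, -1.49 and -0.92, and -0.37 for Cthrc1, and Meox1, Cnn1 and Tagln were then called (adjusted p = 0.0122, 0.0368 and 0.023). The genes with all KO ifetroban libraries below both KO vehicle libraries were Cthrc1 and Tcf21, 2 of 10, against 7.58% of all tested genes; the Tcf21 value was -0.28 (SE 0.189, adjusted p = 0.689). Pdgfra (0.074, SE 0.254), Ddr2 (0.21, SE 0.246) and Gsn (0.011, SE 0.206) had groups that overlapped. This comparison and the vehicle genotype comparison share the KO vehicle libraries.

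In WT, ifetroban against vehicle gave fold changes of -0.32 to 0.35 for 9 of the 10 genes, with an adjusted p of 0.999 for each of the 10. They were 0.35 for Pdgfra, 0.031 for Tcf21, 0.21 for Ddr2 and 0.042 for Gsn among the resting genes, and -0.14 for Acta2, -0.32 for Tagln, -0.063 for Fap, 0.11 for Meox1 and -0.13 for Cnn1 among the activation genes. Without the library labelled WT vehicle 1 all 4 resting genes turned sign, to -0.050 for Pdgfra, -0.035 for Tcf21, -0.030 for Ddr2 and -0.047 for Gsn. Cthrc1 was at 1.59 (SE 0.752), from 14 reads in WT ifetroban and 4 in WT vehicle, a ratio of 3.09 with an exact 95% interval of 0.972 to 12.9. Cthrc1 was higher in both WT ifetroban libraries, and Cnn1 and Tagln lower, against 14.9% and 16.5% of all tested genes that did not overlap in those directions. edgeR and DESeq2 called 0 of the 10 and 0 of all genes (0%), with 0 of the 10 and 192 of all genes (1.26%) at an unadjusted p under 0.05. The difference between the ifetroban effects of the genotypes was -2.62 for Cthrc1 (SE 0.856, adjusted p = 0.9998 in edgeR), -1.44 for Meox1 (SE 0.642, adjusted p = 0.9998) and -0.95 for Cnn1 (SE 0.627). It was -0.65 for Tagln, -0.50 for Acta2, -0.31 for Tcf21, -0.28 for Pdgfra, -0.031 for Gsn, -0.0018 for Ddr2 and 0.055 for Fap. Without the library labelled WT vehicle 1, Pdgfra, Gsn and Ddr2 turned to 0.14, 0.078 and 0.26. No gene passed that test in edgeR or DESeq2 (0%), with 2 of the 10 and 211 of all genes (1.38%) at an unadjusted p under 0.05.

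The promoters available for these genes were read for motifs of the contractile programme. Serum response factor binds the CArG box and TEAD factors bind the MCAT element, and both are known from the Acta2 promoter. RefSeq windows of 300 bases (250 before and 50 after a start, build GRCm38.p6) were given for 6 of the 10 genes, 8 windows in all. They were searched on both strands for the CArG box, with 1 base other than A or T allowed in its core, and for the MCAT letters CATTCC or GGAATG; the motifs share no base in these windows. Of 32851 mouse windows 9.98% held the first and 14.7% the second.

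The 250 bases before the start of Acta2 and Cnn1, contractile genes that were high together in KO vehicle 1, are shown with those of Gsn, the most abundant resting gene, 5′ to 3′ with matches in capitals. They lie at chr19:34255374-34255623 (minus strand), chr9:22099003-22099252 (plus strand) and chr2:35256109-35256358 (plus strand).
Acta2: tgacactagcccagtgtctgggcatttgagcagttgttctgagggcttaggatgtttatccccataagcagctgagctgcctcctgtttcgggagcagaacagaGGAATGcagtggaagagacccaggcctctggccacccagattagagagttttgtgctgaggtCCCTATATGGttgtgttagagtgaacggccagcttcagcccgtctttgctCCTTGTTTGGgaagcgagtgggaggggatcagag
Cnn1: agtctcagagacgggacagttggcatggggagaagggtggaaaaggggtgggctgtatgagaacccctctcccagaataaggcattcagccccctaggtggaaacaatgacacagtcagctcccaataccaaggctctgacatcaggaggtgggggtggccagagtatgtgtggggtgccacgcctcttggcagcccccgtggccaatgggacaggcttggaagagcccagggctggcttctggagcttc
Gsn: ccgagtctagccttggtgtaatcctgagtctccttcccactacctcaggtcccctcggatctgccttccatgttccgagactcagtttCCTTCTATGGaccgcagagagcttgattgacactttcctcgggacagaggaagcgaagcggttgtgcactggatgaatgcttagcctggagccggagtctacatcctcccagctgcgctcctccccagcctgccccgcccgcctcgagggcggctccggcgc

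Acta2 held CArG matches from bases 167 and 217 of the window, counted from 1 at its 5′ end, and an MCAT match from base 105. Gsn held a CArG match from base 89 in the first of its 3 windows. Cnn1 held neither, nor did the windows of Pdgfra, Tcf21 and Ddr2 or the other Gsn windows. A gene that was high in KO vehicle 1 held no match and a resting gene held one; a match is a description of letters and not a bound site.

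Other genes of the fibroblast programme were counted from lists that had likewise been drawn up with earlier results known. Of 20 other activated-fibroblast genes 10 were called higher over both treatments and 0 lower, with a median fold change of 1.58, against -0.0036 over all tested genes, of which 0.505% were called higher and 0.0328% lower. Postn, the matricellular protein periostin, rose by 1.82 (SE 0.259, adjusted p = 0.0304), and Ltbp2, a latent TGF-beta binding protein family member of the elastic matrix, by 2.54 (SE 0.258, adjusted p = 0.00909). Thbs4, a thrombospondin, rose by 2.12 (SE 0.196, adjusted p = 0.00549) and Lox, the collagen cross-linking enzyme lysyl oxidase, by 2.54 (SE 0.334, adjusted p = 0.0248). The other 6 were Loxl1, P4ha3, Fstl1, Tnc, Fn1 and Col8a1, at 0.92 to 5.06. These calls rest on single libraries: with 1 of the 9 left out, 0 to 15 of the 20 were called, namely 1 without the library labelled WT vehicle 1 (Thbs4), 15 without KO vehicle 2 and at most 8 otherwise, and 2 with the length term. Thbs4 and Ltbp2 each kept their call in 6 of the 9 such fits, and the other 8 in 1 to 3. The fold changes of all 10 stayed positive in each of these fits.

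Of 17 other resting-fibroblast genes 3 were called higher and 0 lower, with a median of 0.37. They were Mfap5, a microfibril protein (1.52, SE 0.245, adjusted p = 0.045), Cd248, the surface glycoprotein endosialin (0.84, SE 0.136, adjusted p = 0.0451), and Pcolce, which enhances the trimming of procollagen (0.71, SE 0.119, adjusted p = 0.0451). Each was called in 1 of the 9 fits with a library left out, that without KO vehicle 2, and 0 of the 17 in any of the other 8. Dcn, the proteoglycan decorin, was at 0.26 (SE 0.142, adjusted p = 0.382).

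Of a list of 7 collagen and platelet-derived growth factor genes, 2 fibrillar collagens that Ddr2 binds were called higher. They were Col1a1 (0.94, SE 0.149, adjusted p = 0.0432) and Col3a1 (1.11, SE 0.188, adjusted p = 0.0451). The platelet-derived growth factor genes Pdgfa, Pdgfb, Pdgfc and Pdgfd were not called, at -0.14 to 0.66. The receptors Ddr2 and Pdgfra were at 0.14 and 0.21. The third collagen of the list, Col1a2, was not called (0.66, SE 0.179, adjusted p = 0.129). Each of the 2 calls was lost without the library labelled WT vehicle 1 and in most other fits with a library left out. Of the 9 such fits, Col3a1 kept its call in 1 and Col1a1 in 2. Their fold changes in the 9 fits were 0.94 to 1.31 for Col3a1 and 0.83 to 1.04 for Col1a1.

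Of 16 regulators of the myofibroblast programme edgeR called 0 (2 at an unadjusted p under 0.05) and DESeq2 1, and the median was -0.019. Scx, the factor scleraxis, was at 0.88 (SE 0.242, adjusted p = 0.135) and Twist1 at 0.76 (SE 0.247, adjusted p = 0.188). Srf, which binds the CArG box, was at 0.14 (SE 0.117) and its cofactor Myocd at -0.47 (SE 0.221, adjusted p = 0.322). Of 17 paralogues of the 10 genes edgeR called 0 (6 at an unadjusted p under 0.05) and DESeq2 4. The cytoplasmic and smooth muscle relatives Capg (1.51, SE 0.355), Cnn2 (0.64, SE 0.168), Actg2 (1.12, SE 0.32) and Tagln2 (0.91, SE 0.282) had the smallest p, with adjusted p of 0.0892 to 0.173. Meox2, the other member of the Meox pair, was at -0.24 (SE 0.16). Reads that map to several places stand apart from the gene rows in the deposited counts, so Acta2 and the other actins are measured by the parts in which they differ, and their values are uncertain to that extent.

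Since vessel smooth muscle makes Acta2, Tagln and Cnn1 too, its other genes were set beside them. Of 14 smooth muscle contractile genes edgeR called 0 over both treatments, with 3 at an unadjusted p under 0.05 (Actg2, Cald1 and Smtn), DESeq2 called 1, and the median was 0.018. Myh11, the smooth muscle myosin heavy chain, had 36.6, 58.8 and 60.5 CPM in KO ifetroban, 54.8 and 41.1 in KO vehicle, 71.3 and 60.4 in WT ifetroban, and 38.2 and 78.4 in WT vehicle libraries. Groups overlapped, and its fold change over both treatments was -0.31 (SE 0.232, adjusted p = 0.508). Smtn, smoothelin, was at -0.46 (SE 0.125, adjusted p = 0.129).

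In KO vehicle 1, where Acta2, Tagln and Cnn1 were highest, 11 of the 14 smooth muscle genes were above the mean of the WT libraries of the same treatment, with a median of 0.25 log2 units. Actg2 stood 1.83 above it, Cald1 1.31, Flna 1.22, Tpm2 0.93 and Myl9 0.87, while Myh11 was level at 0.00060. In KO vehicle 2 9 of the 14 were above, with a median of 0.019, and in the KO ifetroban libraries 4 to 6, with medians of -0.15 to -0.050. Without KO vehicle 2 edgeR called 5 of the 14 over both treatments, and 0 with any other library left out.

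Summed over the 14 genes the level was 7603 to 9630 CPM in KO ifetroban, 9109.9 to 10037 in KO vehicle, 8211 to 8338 in WT ifetroban and 8316 to 9980.0 in WT vehicle libraries. Most of that sum was Tpm1, at 6804 to 7870.0 CPM by group mean, which heart muscle also makes. The 9 pericyte genes summed to 974 to 1160.5 CPM in KO ifetroban, 1073 to 1105 in KO vehicle, 1033 to 1083 in WT ifetroban and 969 to 1179 in WT vehicle libraries, with a median fold change of 0.11 and 0 called in edgeR or DESeq2 (1 at an unadjusted p under 0.05).

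Macrophage markers were higher in KO libraries. The 9 summed to 530.2 to 575 CPM in KO ifetroban, 525 to 721 in KO vehicle, 252 to 333 in WT ifetroban and 305 to 352 in WT vehicle libraries, and all 5 KO libraries exceeded all 4 WT libraries. Their median fold change was 0.86, with Lyz2 called (1.20, SE 0.191, adjusted p = 0.0432) and 8 of 9 at an unadjusted p under 0.05. The Lyz2 call was kept in 1 of the 9 fits with a library left out, and was lost without the library labelled WT vehicle 1. The Lyz2 fold change in the 9 fits was 0.99 to 1.36. Epicardial markers summed to 30.6 to 55.0, 27.4 to 99.5, 15.2 to 15.9 and 17.2 to 23.8 CPM in the same groups, and Aldh1a2, a retinoic acid-making enzyme, rose by 3.28 (SE 0.563, adjusted p = 0.0454), a call kept in 2 of the 9 fits with a library left out. By gene, 7 of the 8 epicardial markers had positive fold changes over both treatments, with a median of 0.34. In KO ifetroban against WT ifetroban all 8 were positive (median 1.10). In KO vehicle against WT vehicle 2 were positive and 6 negative (median -0.061), so most markers did not share the higher KO vehicle sum. Adipocyte markers were near 0 in every library, at 0.467 to 0.951 CPM in KO ifetroban, 0.556 to 0.558 in KO vehicle, 0.0767 to 0.158 in WT ifetroban and 0.103 to 0.232 in WT vehicle libraries, and higher in all 5 KO than in all 4 WT libraries. The part of these cells in the values of the 10 genes was not tested.

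For each of the 10 genes, the genes outside the list with the most similar profile over the 9 libraries were found by the root mean square difference of centred log2 CPM. For Cthrc1 they were Ltbp2 (0.556) and Postn (0.751), where the median over all genes compared was 1.59. Meox1 was nearest to Tmem173 (0.217) and Icam1 (0.22), against a median of 0.873. Tagln was nearest to Foxc2 (0.106) and Ecscr (0.115), Cnn1 to Nop16 and Tagln2 (both 0.14), and Acta2 to Plekho2 and Tm4sf1 (both 0.172), against medians of 0.594, 0.674 and 0.537. The smallest difference for Pdgfra was to Atp8b2 (0.0912), for Ddr2 to Nhlrc3 (0.0629), for Gsn to Pam (0.0818), for Tcf21 to Bace2 (0.0891) and for Fap to Selenop (0.0908). Profiles over 9 libraries share depth, treatment and library effects, and likeness is a description.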

How the data were processed

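Each library came as a table of raw counts, whole numbers of reads per gene that the authors deposited in 3 columns, 1 without regard to strand and 1 for each strand, per the file headers and rows in the layout of STAR's gene counting. STAR 2.5.2b, HTSeq and the build GRCm38 are named, per the submitters' processing notes; the annotation release is not given in the sources used here. Reverse-strand counts exceeded forward-strand counts 14.5 times, and the reverse-strand column was used. Rows that name no gene took 26.6% to 31.9% of reads and were left out. Of 49671 gene identifiers 49412 matched the annotation given, for symbols and exonic lengths.

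Groups and replicate numbers came from the sample titles. Replicates differed by 15.0 to 92.8 chi-square per degree of freedom, so none was treated as a copy of another. Genes were filtered with filterByExpr and fitted with TMM scaling in edgeR 4.0.16 (R 4.3.3), with 1 coefficient per group over all 9 libraries, which shared 1 estimate of the spread. The mean variance of log2 CPM over genes was 0.139 in KO ifetroban, 0.327 in KO vehicle, 0.100 in WT ifetroban and 0.189 in WT vehicle libraries. The 6 contrasts were KO against WT within each treatment and averaged over treatments, ifetroban against vehicle within each genotype, and their interaction. SEs are the absolute fold change over the square root of F, and mean log2 CPM values used a prior count of 2. The fit was tested on simulated counts with known changes.

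Alternatives were DESeq2 1.42.0, its size factors, no low-count filter, the compared groups alone, a replicate block, counts without regard to strand, corrections for transcript length and leaving out libraries. The members and gene lists were chosen with earlier results of these data known. By rule all 10 genes are named in each comparison, and of each other list those called in any contrast and up to 4 others with the smallest p over both treatments (6 for smooth muscle genes, regulators and paralogues). Dcn, Srf, Meox2, Myh11, Tpm1 and Pdgfd were named outside that rule, after their values were seen.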

Additional observations from a re-analysis of the deposited data

Results flagged for a closer look

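For Cthrc1, ifetroban and genotype crossed: all 3 KO ifetroban libraries lay below both KO vehicle libraries, while both WT ifetroban libraries lay above both WT vehicle libraries. The difference between the ifetroban effects in KO and in WT was -2.62 on the log2 scale (adjusted p = 0.9998 in edgeR), and it rests on 14 reads in WT ifetroban and 4 in WT vehicle libraries. Ltbp2 and Thbs4, listed among the other activated-fibroblast genes, showed the same crossing, at -2.00 (adjusted p = 0.9998) and -1.90 (adjusted p = 0.9998). Ltbp2 also had the profile nearest to that of Cthrc1, a likeness taken over the same 9 libraries and so not separate from the crossing. Of all tested genes 7.58% lay lower without overlap in KO ifetroban than in KO vehicle. The share higher without overlap in WT ifetroban than in WT vehicle was 14.9%, and genes with both were not counted. Ltbp2 had 21.04, 17.7 and 35.3 CPM in KO ifetroban, 54.1 and 45.2 in KO vehicle, 8.71 and 8.20 in WT ifetroban, and 2.87 and 5.56 in WT vehicle libraries. Thbs4 had 20.7, 18.9 and 15.9 CPM in KO ifetroban, 61.6 and 33.8 in KO vehicle, 7.98 and 8.48 in WT ifetroban, and 6.26 and 5.14 in WT vehicle libraries. None of the 3 differences passed the test over all genes, and the library labelled WT vehicle 1 is 1 of the WT vehicle libraries in each.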

How the results depend on the processing

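The call of Cthrc1, the calls in the other gene lists and the values of Meox1, Acta2, Tagln and Cnn1 depend on single libraries, as the text gives them. Groups of 2 or 3 libraries limit all tests, and Cthrc1 is further limited by 1 to 9 reads in each WT library. The direction of Acta2, Cthrc1, Meox1 and Cnn1 in KO against WT, within each treatment and averaged, held under every alternative run, as did their lower values in KO ifetroban against KO vehicle. The causes of the changes below were not tested.

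Members called numbered 3 in DESeq2 for KO vehicle against WT vehicle and 3 averaged over treatments. Without the low-count filter they numbered 5 in each, 1 in KO ifetroban against WT ifetroban, 3 in KO ifetroban against KO vehicle and 1 for the interaction. Without both KO vehicle replicate 1 and WT vehicle replicate 1, Cthrc1 stood at 4.93 in KO vehicle against WT vehicle and 3.59 averaged. Its call was lost in the first and kept in the second. Members called numbered 0 for KO vehicle against WT vehicle in the compared groups alone, and 0 there and 0 averaged with a term for length class. With 1 library left out they ranged from 0 to 5 for KO vehicle against WT vehicle, 0 to 5 averaged and 0 to 3 for KO ifetroban against KO vehicle, each highest without KO vehicle replicate 2.

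Genes called, in the order KO vehicle against WT vehicle, KO ifetroban against WT ifetroban, averaged and KO ifetroban against KO vehicle, were 373, 69, 754 and 3 in DESeq2 and 1195, 428, 1684 and 428 without the filter, which also gave 34 for WT ifetroban against WT vehicle and 73 for the interaction. The compared groups alone gave 5 and 12 for the genotype pairs and length offsets 15 and, averaged, 131. The length class term gave 1, 1 and, averaged, 9. Without both replicates 1 the counts were 2, 14 and, averaged, 25. With 1 library left out they ranged from 1 to 1734, 1 to 8, 2 to 2098 and 0 to 449, and leaving out KO vehicle replicate 2 gave 1734, 2098 and 449.

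In their deviations from group means, same-numbered libraries correlated at 0.00108 to 0.478 and differently numbered ones at -0.478 to 0.389. In groups of 2 the deviations mirror each other, so these values cannot settle whether the replicate numbers pair the libraries. With the replicate block 45 genes were called in KO vehicle against WT vehicle and 531 averaged, with 3 members, Acta2, Cthrc1 and Meox1. Under the block the sign turned for Pdgfra (-0.0064), Ddr2 (-0.058), Gsn (-0.093) and Fap (-0.095) in KO ifetroban against WT ifetroban, Pdgfra (-0.020) and Gsn (-0.16) in KO ifetroban against KO vehicle, and Fap (-0.010) in the interaction.

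Other signs that turned were of uncalled values, which included Pdgfra (0.35 in KO vehicle against WT vehicle), Tagln (0.39 in KO ifetroban against WT ifetroban, -0.32 in WT ifetroban against WT vehicle, -0.65 in the interaction) and Acta2 (-0.50 in the interaction). In KO vehicle against WT vehicle Fap gave 0.0035 with length offsets, 0.048 with the length class term and 0.33 without both replicates 1, where Pdgfra gave -0.18 and Ddr2 -0.11. Averaged, Fap gave 0.015, 0.055 and 0.17 under the same settings and 0.0084 within the libraries with long transcripts high, and Pdgfra -0.055 without both. In KO ifetroban against WT ifetroban Fap gave -0.020 in DESeq2 and with its size factors, and Tagln -0.092 without regard to strand. In KO ifetroban against KO vehicle Fap gave 0.023 without the filter and 0.0092 in the compared groups alone, Pdgfra -0.15 and Ddr2 -0.0040 with length offsets, and Pdgfra -0.31, Ddr2 -0.23 and Gsn -0.20 with the length class term, and Gsn -0.14 and Fap -0.48 without both. In WT ifetroban against WT vehicle the length class term gave Ddr2 -0.066, Gsn -0.11 and Cnn1 0.12, leaving out both gave Pdgfra -0.050, Tcf21 -0.036, Ddr2 -0.030 and Gsn -0.047, and Tagln gave 0.49 without regard to strand. In the interaction Ddr2 gave 0.0069 without the filter, and leaving out both gave Pdgfra 0.26, Ddr2 0.25, Acta2 0.081, Tagln 0.29 and Fap -0.32.

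With 1 library left out, KO vehicle against WT vehicle ranged from -0.078 to 0.91 for Pdgfra, -0.13 to 0.43 for Ddr2, -0.064 to 0.25 for Gsn and -0.77 to 0.42 for Fap. KO ifetroban against WT ifetroban ranged from -0.012 to 0.16 for Pdgfra, -0.042 to 0.33 for Ddr2, -0.11 to 0.26 for Gsn and -0.11 to 0.13 for Fap. Averaged, Pdgfra ranged from -0.0057 to 0.48, Gsn from -0.012 to 0.18 and Fap from -0.38 to 0.21. KO ifetroban against KO vehicle ranged from -0.041 to 0.21 for Pdgfra, -0.16 to 0.18 for Gsn and -0.47 to 0.72 for Fap. WT ifetroban against WT vehicle ranged from -0.050 to 0.94 for Pdgfra, -0.077 to 0.14 for Tcf21, -0.030 to 0.53 for Ddr2, -0.14 to 0.21 for Gsn, -0.38 to 0.16 for Acta2, -0.18 to 0.057 for Fap and -0.041 to 0.26 for Meox1. The interaction ranged from -0.84 to 0.14 for Pdgfra, -0.30 to 0.26 for Ddr2, -0.20 to 0.16 for Gsn, -1.17 to 0.19 for Tagln, -0.79 to -0.15 for Acta2 and -0.41 to 0.78 for Fap. The compared groups alone give no value for the averaged effect or the interaction.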
